A study of Mus musculus with 3 samples.

Results

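A set of 45 genes of the lysosome was followed through a 14-day culture in which stromal cells of the mouse testis were differentiated toward Leydig cells. The genes were chosen by name as hydrolases, their cofactors, lysosomal membrane proteins, the transcription factor Tfeb and subunits of the proton pump V-ATPase, without the cathepsins, and all 45 were found among the 24698 genes of the count table. The choice was made with earlier results of these data known. Counts of members set beside shares of all genes therefore describe the set and are not a test. There are 21 hydrolases, 3 cofactors, 7 membrane proteins and 13 V-ATPase genes, beside Tfeb.

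Cells were taken from the testes of adult C57BL/6 males of 8–12 weeks, sorted as Sca1+/cKit- and plated on Matrigel at 100000 cells per well. All groups shared 18 h of recovery in 10% FBS and 3 days of expansion with PdgfAA, PdgfBB and Fgf2 (each 10 ng/ml) and 0.5 uM SAG, an activator of hedgehog signaling. The differentiation medium kept these factors and added 5 mM LiCl2 and 10 uM DAPT, an inhibitor of Notch cleavage. Day 4 falls at the change of medium and days 7 and 14 lie after it, so day 7 over day 4 also spans that change. Days 4, 7 and 14 of culture were read by Drop-seq with 1 library each, and the number of animals behind a library is not given in the sources used here. Drop-seq catches single cells with barcoded beads in droplets and marks each captured transcript with a unique molecular identifier (UMI). The kept cells held 12677110 UMIs in 2980 cells on day 4, 11627440 in 2171 cells on day 7 and 5324400 in 973 cells on day 14, with median depths of 2886.5, 3285 and 3272 UMIs per cell. No kept cell barcode was shared between any pair of libraries.

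A gene's level is its summed UMIs per 1000000 UMIs of a day (CPM). Each molecule is counted once at its 3′ end, so levels of different genes are compared as CPM without division by length. Ranges in parentheses are exact 95% intervals that cover counting error only (Poisson for a level, conditional binomial for a ratio, Clopper-Pearson for a share). With 1 library per day there is no replicate check and no test was made, and a difference between days cannot be told apart from a difference between libraries. Genes with a mean of at least 5 CPM over the 3 days were counted (9907 genes, 43 of the 45 members), and a gene was called higher or lower where its level differed by at least 1.5-fold after 1 CPM had been added. Where 3 levels follow a gene, they are those of days 4, 7 and 14 in that order.

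Lysosomes degrade macromolecules with acid hydrolases that are made in the endoplasmic reticulum and delivered mostly through mannose phosphate receptors. The V-ATPase, built from a membrane sector (V0) and a cytosolic sector (V1), pumps protons to keep the lumen acidic, and heavily glycosylated membrane proteins line the organelle. In Leydig cells, lysosomal lipid breakdown is among the sources of free cholesterol, the precursor of steroids.

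The 21 hydrolases together stood at 1274 CPM on day 4, 2132 on day 7 and 5893 on day 14. The 7 membrane proteins summed to 3637, 4794 and 6993 CPM, and the 13 V-ATPase genes to 1842, 2872 and 3359.6 CPM. From day 7 to day 14 the hydrolases stood furthest above their earlier level and the pump genes least. In summed level, day 14 over day 7 was 2.76-fold (2.72–2.81) for hydrolases, 1.46-fold (1.44–1.48) for membrane proteins and 1.17-fold (1.15–1.19) for V-ATPase genes. For day 7 over day 4 the ratios were 1.67-fold (1.64–1.71), 1.32-fold (1.30–1.33) and 1.56-fold (1.53–1.59) in the same order. The summed levels thus differed between groups in the earlier step too. The hydrolase sum relative to the V-ATPase sum, as a ratio of UMIs, was 0.692 (0.678–0.706) on day 4, 0.742 (0.730–0.755) on day 7 and 1.75 (1.72–1.79) on day 14. The pump's own balance moved little, with 1.99 (1.93–2.05), 1.997 (1.95–2.05) and 1.90 (1.84–1.97) UMIs of V1 genes for each UMI of V0 genes.

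Between day 4 and day 7, 27 of the 43 members counted were at least 1.5-fold higher, against 8.78% of all 9907 genes, and 0 were at least 1.5-fold lower, against 5.36%. The median log2 ratio was 0.72 for hydrolases, 0.67 for membrane proteins and 0.72 for V-ATPase genes, beside 0.09 for all genes. With a pseudocount of 10 CPM these medians were 0.42, 0.65 and 0.69, beside 0.06 for all genes. How close the groups lie in this step thus depended on the pseudocount. Between day 7 and day 14, 22 members were higher by the same rule, against 15.9% of all genes, and 0 were lower, against 27%. Here the medians parted, at 1.11 for hydrolases, 0.46 for membrane proteins and 0.19 for V-ATPase genes, beside -0.18 for all genes. The higher members of this step were 15 of 21 hydrolases, all 3 cofactors, 3 of 7 membrane proteins and 1 of the 12 V-ATPase genes counted. Of these membrane proteins, Cln3 was below 5 CPM on days 4 and 7. It reached the minimum only through day 14, so its place in the count is tied to its higher level there. Scaling by the median ratio over genes instead of total UMIs brought the median log2 ratio of all genes to 0.01 in the earlier and 0.00 in the later step. It gave 23 members higher in the earlier step, with Aga, Grn, Cln3 and Atp6v1g1 no longer past 1.5-fold, 29 higher in the later step, with Galns, Sgsh, Arsb, Lamp1, Mcoln1, Atp6v0b and Atp6v1f added, and 0 lower in either. The shares of all genes higher also moved under this scaling, to 6.49% in the earlier and 20.6% in the later step, and the shares lower to 6.59% and 20.01%.

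**Figure D1:**
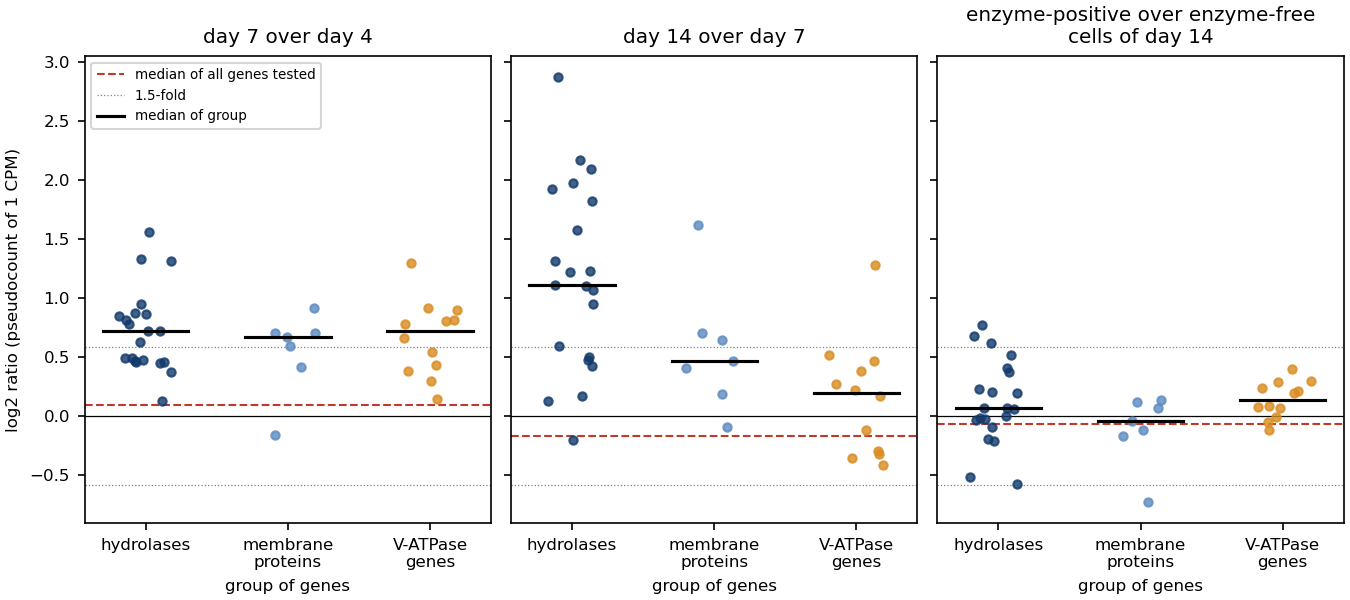
Log2 ratios (vertical axis, pseudocount of 1 CPM) of the members counted, 1 point a gene, in 3 comparisons. Black bars are group medians, the dashed line is the median of all 9907 genes and dotted lines mark 1.5-fold. With this pseudocount the medians of hydrolases, membrane proteins and V-ATPase genes lie together for day 7 over day 4 (0.67 to 0.72). They spread for day 14 over day 7 (0.19 to 1.11). The median of the 3 cofactors was 0.78 and 1.04 in these comparisons.

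Taken over the 3 days, 35 of the 43 members counted had their levels in the order of the days, lowest on day 4 and highest on day 14, or 81.4%, against 25.5% of all 9907 genes. This held for 20 of 21 hydrolases, all 3 cofactors, 5 of 7 membrane proteins and 7 of 12 V-ATPase genes. A further 7 members were highest on day 7, of which 5 encode parts of the pump, 1 is the hydrolase Lipa and 1 the membrane protein Scarb2. Under median-ratio scaling the log2 ratio of day 14 over day 7 changed sign for Scarb2, from -0.09 to 0.09. That of the pump gene Atp6v1g1 went from -0.12 to 0.07. The highest day of these genes, and with it the counts of 35 and 7, thus depended on the scaling. Laptm4a alone had its lowest level on day 7.

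**Figure D2:**
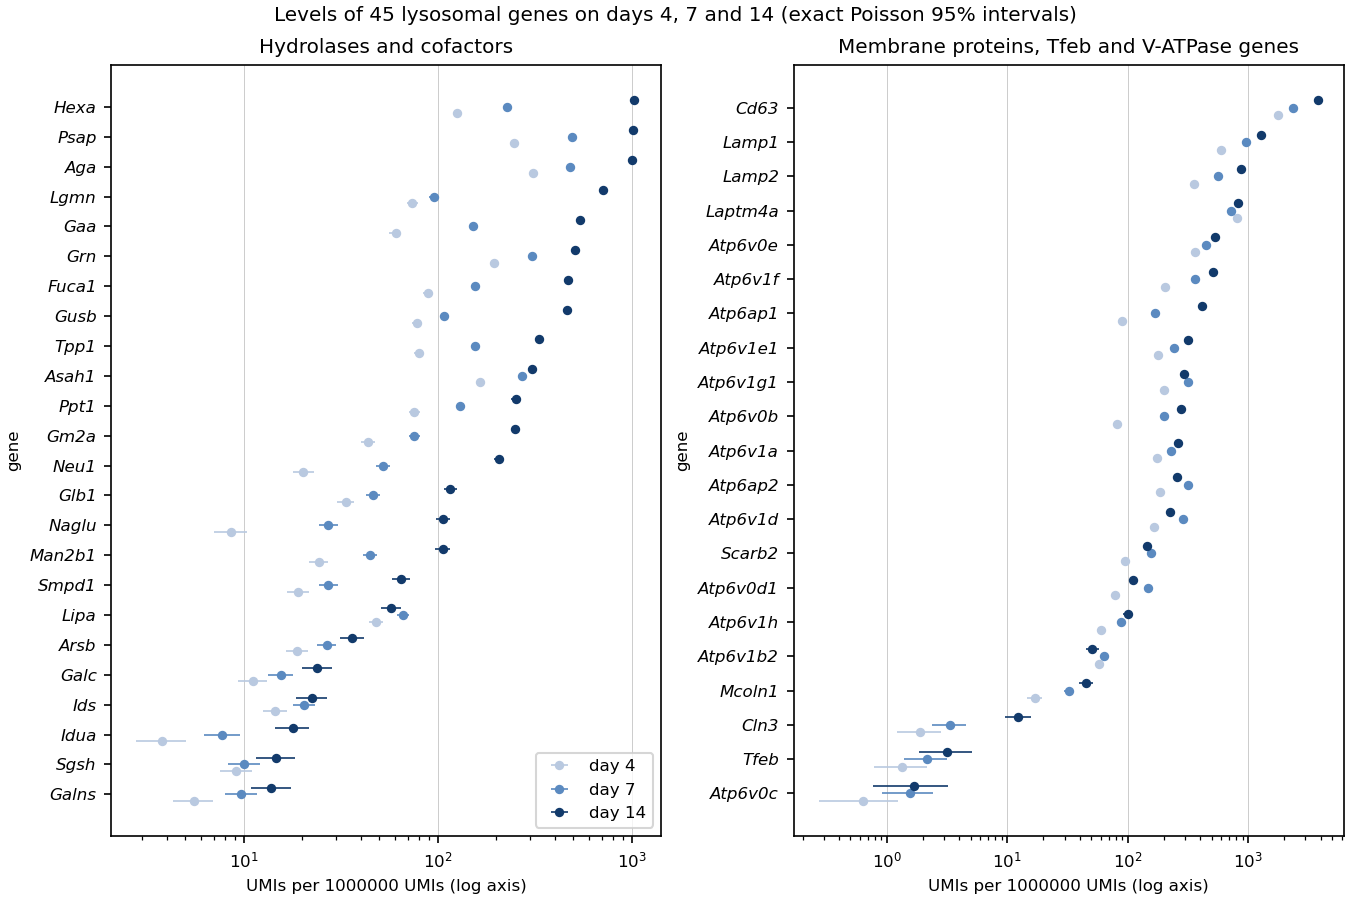
Levels of the 45 genes in UMIs per 1000000 UMIs (horizontal log axis) on days 4, 7 and 14, with exact Poisson 95% intervals and genes ordered by their day 14 level. Most hydrolases have a wide gap between day 7 and day 14, as Hexa from 229 to 1029.6 CPM, while most V-ATPase genes have a narrow or inverted one.

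Among the hydrolases, all 4 enzymes that take apart glycoproteins were at least 1.5-fold higher in both steps, with Aga near the threshold in the first. Of all genes, 8.78% were higher in the first step and 15.9% in the second. Aga, which cuts the bond between sugar chain and asparagine, was the most abundant hydrolase on days 4 and 7, with 310.4, 479 and 1003 CPM on days 4, 7 and 14. Its ratio was 1.54-fold (1.48–1.61) for day 7 over day 4 and 2.10-fold (2.02–2.18) for day 14 over day 7, and under median-ratio scaling its log2 ratio of the first step went from 0.62 to 0.54, within 1.5-fold. Fuca1, the fucosidase, had 88.7, 156 and 467 CPM, with a later step of 2.99-fold (2.82–3.18). The sialidase Neu1, which removes terminal sialic acid, began lower and moved further, with 20.3, 52.3 and 208 CPM. Its steps were 2.58-fold (2.23–3.00) and 3.98-fold (3.60–4.40). Man2b1, the acid mannosidase, stood at 24.5, 44.7 and 106 CPM, and its 3 levels did not overlap within counting error.

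The 5 hydrolases of sphingolipid breakdown were less uniform. Hexa encodes a subunit of the hexosaminidase that trims gangliosides, and on day 14 it stood level with Aga. It had 125 (95% interval 119–132) CPM on day 4, 229 (95% interval 220.2–238) on day 7 and 1029.6 (95% interval 1003–1057) on day 14. Its share of all hydrolase UMIs was 9.84% (9.38–10.3%) on day 4 and 17.5% (17.1–17.9%) on day 14, where that of Aga was 17.0% (16.6–17.4%), so the order of the pair is not resolved. Asah1, the acid ceramidase, showed another course, with 164, 271 and 305 CPM on days 4, 7 and 14. It differed by 1.65-fold (1.56–1.75) in the earlier step and by 1.125-fold (1.06–1.195) in the later one, and its rank by level among the 21 hydrolases was 2 on day 4 and 8 on day 14. The galactosidase Glb1 had 33.5, 46.3 and 116 CPM, and the sphingomyelinase Smpd1 had 19.1, 27.3 and 64.6 CPM. For both, only the later step passed 1.5-fold, at 2.51-fold (2.23–2.83) and 2.37-fold (2.03–2.77). Galc, which splits galactosylceramide, was scarcer, with 11.1, 15.5 and 23.9 CPM.

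Of the 7 enzymes that degrade glycosaminoglycans, Gusb and Naglu carried most of the difference. Gusb, the glucuronidase, had 78.3, 108 and 464 CPM on days 4, 7 and 14, and its later step was 4.29-fold (4.01–4.60). Naglu, an enzyme of heparan sulfate breakdown, had 8.60, 27.3 and 106 CPM. It showed the widest early difference of all 43 members counted, 3.17-fold (2.54–3.98), followed by 3.89-fold (3.39–4.48). Idua, the iduronidase, stood at 3.79, 7.74 and 17.8 CPM, and Galns, a sulfatase of keratan sulfate, at 5.52, 9.72 and 13.9 CPM. Both rest on few UMIs, 48 for Idua and 70 for Galns on day 4. With total UMIs, the sulfatases Sgsh, Ids and Arsb stayed within 1.5-fold in both steps, with log2 ratios of 0.12 to 0.49 and then 0.12 to 0.50, and with levels of 9.15 to 36.2 CPM. Under median-ratio scaling Sgsh and Arsb passed it in the second step, at 0.67 and 0.60.

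Lgmn, an asparaginyl endopeptidase that also processes other lysosomal proteases, had the widest later difference of the members counted. Its levels were 73.9 (95% interval 69.3–78.8) CPM on day 4, 95.9 (95% interval 90.3–102) on day 7 and 709 (95% interval 686–732) on day 14, or 1.30-fold (1.19–1.42) and then 7.39-fold (6.91–7.91). Nearly the whole difference fell in the second week. The tripeptidyl peptidase Tpp1 instead passed 1.5-fold in both steps, with 80.1, 155 and 334 CPM on days 4, 7 and 14. Gaa, which frees glucose from glycogen, had 60.6, 152 and 540.2 CPM, or 2.51-fold (2.31–2.74) and 3.55-fold (3.34–3.77). Ppt1, which removes palmitate from proteins, had 75.6, 131 and 253 CPM.

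Lipa stood against its group. It encodes the acid lipase that frees cholesterol from its esters in the lysosome, and it had 48.2 (95% interval 44.5–52.2) CPM on day 4, 66.4 (95% interval 61.8–71.2) on day 7 and 57.5 (95% interval 51.2–64.3) on day 14. Its later ratio was 0.866 (0.756–0.989), the only value below 1 among the 21 hydrolases. In enzyme-free cells, which are defined with the split of day 14 below, the same ratio was 1.06 (0.881–1.27). Only that of Asah1 was below 1 there, at 0.965 (0.878–1.06). Without cells holding at least 2 macrophage marker UMIs, Lipa in enzyme-free cells of day 14 went from 70.4 to 60.9 CPM. Enzyme-free cells of day 7, none left out, had 66.3 CPM. The later ratio over all cells was 0.814 (0.707–0.934) without macrophage-marker cells. The direction for Lipa in enzyme-free cells thus depended on whether such cells were kept. Under median-ratio scaling the log2 ratio of Lipa over all cells was -0.02 in this step, beside -0.20 with total UMIs.

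All 3 cofactors were at least 1.5-fold higher in each step when scaled by total UMIs, against 8.78% and 15.9% of all genes. Psap, whose product is cut into the saposins that present sphingolipids to hydrolases, had 249, 493 and 1014 CPM on days 4, 7 and 14, a level like that of the leading hydrolases. Grn, the precursor of the granulins, had 195, 306 and 508 CPM, and its first step came within 1.5-fold under median-ratio scaling, at a log2 ratio of 0.57 beside 0.65. Gm2a, which lifts gangliosides out of membranes for the hexosaminidase, had 43.6, 75.7 and 251 CPM, with a later step of 3.31-fold (3.04–3.61). Gm2a thus moved further between days 7 and 14 than Psap, at 2.06-fold (1.98–2.13), or Grn, at 1.66-fold (1.58–1.74).

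Membrane proteins held the most abundant members. Cd63, a tetraspanin of late endosomes and lysosomes, had 1766, 2351 and 3812 CPM on days 4, 7 and 14. Within the last 300 bases of its longest coding transcript, 35.1% of stretches of 50 bases also occur in the annotated pseudogene Cd63-ps, so its counts are uncertain to the extent that reads were split between them. Lamp1, a main glycoprotein of the lysosomal membrane, had 596, 967 and 1279 CPM. Its relative Lamp2, which also serves autophagy, had 354, 564 and 879 CPM. The steps were 1.62-fold (1.58–1.67) and 1.32-fold (1.28–1.36) for Lamp1, and 1.59-fold (1.53–1.66) and 1.56-fold (1.501–1.62) for Lamp2. How the steps compare depended on the scaling: under median-ratio scaling the log2 ratios were 0.62 and 0.59 for Lamp1 and 0.59 and 0.82 for Lamp2.

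Scarb2, the receptor that carries glucocerebrosidase to the lysosome, had 95.5, 156 and 146 CPM on days 4, 7 and 14. Its later log2 ratio was -0.09, and 0.09 under median-ratio scaling, so no direction is given for it. Mcoln1, a cation channel of the lysosome, had 16.9, 32.6 and 45.3 CPM, and its early step passed 1.5-fold, at 1.93-fold (1.63–2.29), while its later one passed only under median-ratio scaling, at a log2 ratio of 0.64 beside 0.46. Cln3, a membrane protein whose loss causes a storage disease of neurons, was the scarcest membrane protein, with 1.89, 3.35 and 12.4 CPM from 24, 39 and 66 UMIs. Its later ratio was 3.70 (2.45–5.64), and its early log2 ratio of 0.59, at the threshold, was 0.53 under median-ratio scaling, within 1.5-fold. Laptm4a, a transmembrane protein of endosomes and lysosomes, held a narrow range of levels throughout, with 806, 721 and 818 CPM.

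The transcription factor gene Tfeb, whose product drives many lysosomal genes, was barely detected. It gave 17, 25 and 17 UMIs, or 1.34, 2.15 and 3.19 CPM on days 4, 7 and 14. It missed the minimum of 5 CPM and is not among the 43 members counted. Its ratio of day 14 over day 7 was 1.48 (0.753–2.86), so a difference was not detectable at this depth, while day 14 over day 4 was 2.38 (1.14–4.96), from 17 UMIs on each of these days. Of the related genes, Tfe3 had 20.4, 14.4 and 20.5 CPM and Mitf, from the same family, 3.16, 3.87 and 5.82 CPM. Flcn, a regulator of these factors, had 9.78, 15.7 and 20.5 CPM and was 1.61-fold (1.27–2.04) higher on day 7 than on day 4. Of the 5 genes in this list, 3 were counted, with 1 higher in the first step and 0 in the second, against 8.78% and 15.9% of all genes.

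In the membrane sector of the pump, the small subunit gene Atp6v0e had 364, 446 and 537 CPM on days 4, 7 and 14, Atp6v0b 81.2, 200.1 and 276 CPM and Atp6v0d1 79.1, 148 and 111 CPM. The first step was 2.47-fold (2.29–2.66) for Atp6v0b, which encodes a proteolipid of the rotor, and 1.88-fold (1.73–2.03) for Atp6v0d1, which joins the rotor to the V1 stalk. In the second step they parted, at 1.38 (1.29–1.48) and 0.746 (0.678–0.819). Atp6v0c, the gene of the main proteolipid, gave only 8, 18 and 9 UMIs on days 4, 7 and 14 and is not among the 43 members counted. The annotation lists a pair of pseudogenes of Atp6v0c, and 0% of the stretches of 50 bases near its 3′ end occur in another annotated gene. Which annotation the deposited counts were made with is unknown, and its part in the low count was not tested, so this level is uncertain, and the V0 sum above nearly lacks the gene.

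Among the 7 genes of the cytosolic sector, Atp6v1f was the most abundant, with 205, 361 and 515 CPM on days 4, 7 and 14. Its steps were 1.76-fold (1.68–1.85) and 1.43-fold (1.36–1.499). Atp6v1g1, a peripheral stalk subunit, had 200.05, 317 and 292 CPM, and Atp6v1d, the central shaft, had 165, 288 and 225 CPM. Both were past 1.5-fold in the first step, Atp6v1g1 only when scaled by total UMIs (log2 ratio 0.66, beside 0.58 under median-ratio scaling), and Atp6v1d was lower on day 14 than on day 7, at 0.780 (0.730–0.834). The stalk gene Atp6v1e1 had 179.9, 243 and 316 CPM. The catalytic subunit gene Atp6v1a had 175, 227 and 264 CPM, the regulatory Atp6v1h 60.7, 89.0 and 100.3 CPM, and Atp6v1b2, which alternates with the catalytic subunit in the hexamer, 58.0, 64.2 and 51.1 CPM. None of the 7 passed 1.5-fold in the second step with total UMIs, where 15.9% of all genes were higher and 27% lower.

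The accessory genes went separate ways. Atp6ap1, which assists assembly of the pump, had 90.2, 170.2 and 415 CPM on days 4, 7 and 14, or 1.89-fold (1.75–2.03) and then 2.44-fold (2.29–2.59). It was the 1 V-ATPase gene called higher in the second step. Atp6ap2, also known as the prorenin receptor, had 184, 316 and 256 CPM, with a later ratio of 0.809 (0.760–0.862). In all, 5 of the 12 V-ATPase genes counted were lower on day 14 than on day 7, with log2 ratios from -0.42 to -0.12. Among all 9907 genes, 5993 had a log2 ratio below 0 in this step. Under median-ratio scaling 4 of the 5 V-ATPase genes stayed below 0 and Atp6v1g1 came to 0.07.

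Other genes of the organelle, in lists of the same roles, gave the same order of groups between days 7 and 14, with median log2 ratios of 1.01 for other enzymes, 0.23 for other membrane and lipid transport genes and -0.27 for other V-ATPase genes. For day 7 over day 4 these medians were 0.57, 0.45 and 0.40, a wider spread than among the members. Calls in these lists, and in that of the relatives of Tfeb, rest on total UMIs only. Over all genes, median-ratio scaling shifted log2 ratios by a median of -0.08 in the first step and 0.18 in the second. Calls close to 1.5-fold in these lists are therefore uncertain. Of 14 other lysosomal enzymes, 13 were counted, with 5 higher in the first step, 10 in the second and 0 lower in either, against 8.78% and 15.9% of all genes higher and 5.36% and 27% lower. Pld3, a lysosomal nuclease, had 55.7, 130.5 and 358 CPM on days 4, 7 and 14, and Gla, the galactosidase lost in Fabry disease, 28.6, 30.6 and 98.4 CPM. Scpep1, a serine carboxypeptidase, had 129.6, 229 and 462 CPM.

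Of 12 other membrane and lipid transport genes, 3 were higher in the first step, and 3 were higher and 1 lower in the second, where 15.9% of all genes were higher and 27% lower, after 8.78% higher in the first. Npc2, which hands cholesterol from the lumen to the membrane, had 1128, 1676 and 3204 CPM on days 4, 7 and 14, a level near that of Cd63. Npc1, its partner in cholesterol export, had 20.7, 27.4 and 39.4 CPM and stayed within 1.5-fold in both steps with total UMIs. Laptm4b, a relative of Laptm4a, had 39.3, 88.7 and 231 CPM and contrasts with it. The sialic acid exporter Slc17a5 had 9.78, 16.3 and 28.9 CPM and the cystine exporter Ctns 2.76, 6.97 and 7.14 CPM. Lamtor1, the anchor of a signaling scaffold on the lysosome, was the 1 lower gene, with 214, 305 and 202 CPM. Its later log2 ratio of -0.59 lay at the threshold. In enzyme-free cells, defined below, 0 genes of the list were lower in this step, against 25.1% of all genes.

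Sorting of the enzymes showed no common course. Gnptg, a subunit of the transferase that starts the mannose phosphate tag, had 32.3, 44.1 and 162 CPM on days 4, 7 and 14, while Gnptab, which encodes its catalytic subunits, had 12.0, 17.6 and 11.3 CPM. Their later ratios were 3.67 (3.29–4.10) and 0.639 (0.471–0.856). Of the receptors for the tag, Igf2r had 27.8, 26.6 and 51.1 CPM and M6pr 111, 99.1 and 95.6 CPM. Nagpa, which uncovers the tag, had 30.5, 49.7 and 44.3 CPM, Sumf1, which activates sulfatases, 44.5, 75.3 and 98.8 CPM, and the adaptor Gga2 29.5, 34.7 and 57.5 CPM. Of the 9 genes in this list 8 were counted, with 2 higher in the first step, and 3 higher and 1 lower in the second, beside 8.78% of all genes higher in the first and 15.9% higher and 27% lower in the second.

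Of 9 other V-ATPase genes, 5 were counted. Atp6v0e2, an isoform of Atp6v0e, had the widest difference of them, 2.52, 9.29 and 55.8 CPM on days 4, 7 and 14, or 3.68-fold (2.46–5.64) and 6.01-fold (4.80–7.56). Atp6v1c1, which joins the sectors, had 52.6, 95.9 and 59.3 CPM and was the 1 gene of the list called lower in the second step, against 27% of all genes. Atp6v0d2, Atp6v1b1 and Atp6v1c2, isoforms of specialised cells, gave at most 3 UMIs on any day.

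The difference between days was broad across cells. To compare cells at equal depth, each cell was thinned at random to 1500 UMIs, which left out 753 shallower cells on day 4, 429 on day 7 and 179 on day 14. A thinned cell held a median of 11 UMIs of the 45 genes on day 4 (quartiles 8 and 14), 16 on day 7 (12 and 20) and 27 on day 14 (22 and 31). The day 14 median was reached by 4 of 2227 cells on day 4, or 0.1796% (0.0490–0.459%), and by 91 of 1742 on day 7, or 5.22% (4.23–6.38%). Without thinning, the 45 genes made up a median of 0.704%, 1.05% and 1.80% of a cell's UMIs on days 4, 7 and 14. In thinned cells the mean number of hydrolase UMIs was 1.92, 3.31 and 8.82, and that of V-ATPase UMIs 2.78, 4.28 and 4.99.

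**Figure D3:**
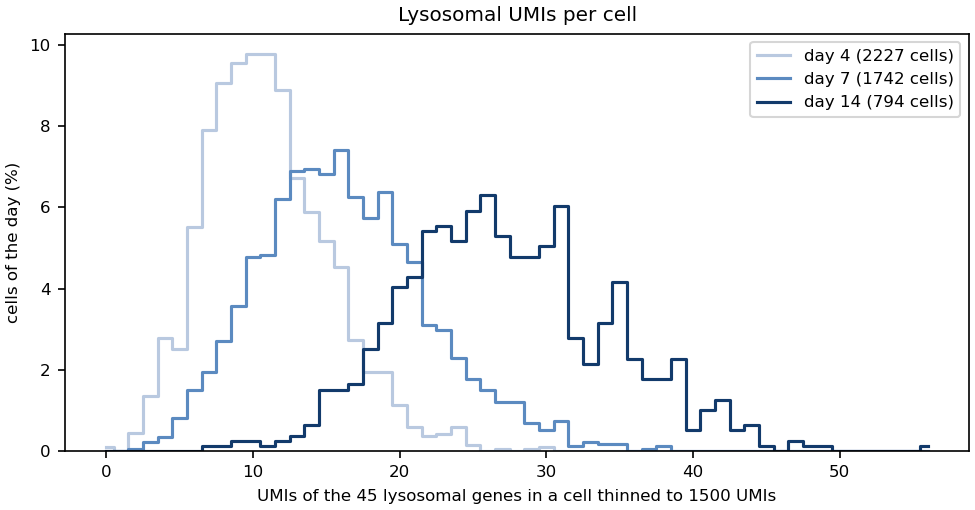
Share of the cells of a day (vertical axis, %) by the number of UMIs of the 45 genes in a cell thinned to 1500 UMIs (horizontal axis). The 3 lines are the days, and their medians are 11, 16 and 27 UMIs, so that days 4 and 14 overlap little.

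Other marker genes moved with the days. The 6 Leydig markers summed to 243 (234–251) CPM on day 4, 470.4 (458–483) on day 7 and 7659 (7585–7734) on day 14, led by Star, Star and Cyp11a1, and none was at 0. The 4 myofibroblast markers summed to 4909.6 (4871–4948), 4437 (4398–4475) and 315 (300.3–331) CPM, with Acta2 leading on days 4 and 7, Myl9 on day 14 and Cnn1 at 0 on day 14. The 5 proliferation genes summed to 490.3, 455 and 77.8 CPM, led by Mki67 on days 4 and 14 and Top2a on day 7. The 4 markers of interstitial progenitors were at 803, 292 and 553 CPM, with Ly6a leading on days 4 and 14 and Nr2f2 on day 7. These genes did not move together, since Ly6a stood at 64.2 and 358 CPM and Pdgfra at 65.3 and 108 CPM on days 7 and 14, but Nr2f2 at 141 and 72.3 CPM and Tcf21 at 21.6 and 14.1 CPM. The endothelial list, led by Cdh5, was at 80.1, 113 and 22.5 CPM, the Sertoli list, led by Sox9, at 27.5, 32.1 and 13.0 CPM, and the germ cell list at 0.631, 0.172 and 1.503 CPM. On day 14 Pecam1, Tie1, Amh and Dhh were at 0. The mitochondrial share of UMIs also differed, at 1.37%, 1.46% and 2.64% on days 4, 7 and 14. Its median per cell was 1.19%, 1.37% and 2.30%. The part of these shifts in the lysosomal levels was not tested.

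Macrophages are rich in lysosomes, and their 10 markers summed to 12.5 (10.6–14.6) CPM on day 4, 26.6 (23.7–29.7) on day 7 and 235 (222–249) on day 14. Lyz2 led on each day, with 199.6 CPM on day 14, where C1qb was at 0 and Csf1r at 1.88 CPM. Only 6, 7 and 9 cells of days 4, 7 and 14 held at least 2 UMIs of the list, and they held 2.03% of the UMIs of day 14. Without them the list stood at 9.78 CPM on day 14, and the later ratio of Lgmn was 7.39 (6.91–7.91), the same as with them. The counts of members past 1.5-fold without these cells were 27 in the first step and 21 in the second. No share of all genes is given without these cells, and the median log2 ratio of all genes was then 0.09 and -0.18.

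The cells of day 14 were split by their steroidogenic enzymes. Cells with at least 2 UMIs of Cyp11a1, Cyp17a1 and Hsd3b1 after thinning (enzyme-positive, 352 cells) were compared with cells holding 0 (enzyme-free, 338 cells). The 104 cells with 1 such UMI, next to the threshold, and the 179 cells under 1500 UMIs were in neither. The median depth was 4639.5 UMIs in enzyme-positive and 4304 in enzyme-free cells, and levels were taken from full counts. The 3 enzymes together stood at 9345 CPM in enzyme-positive and 199.9 CPM in enzyme-free cells, which follows from the split. The classes are ranges of a count and not cell types. The other 3 Leydig markers, Star, Insl3 and Nr5a1, are not part of the split, and they summed to 4371 (4290–4453) CPM in enzyme-positive and 1491 (1438–1545) CPM in enzyme-free cells, led by Insl3 in both. Myofibroblast markers stood at 122.9 (109.7–137) CPM in enzyme-positive and 556 (524–589.6) CPM in enzyme-free cells, led by Myl9. Day 7 held 27 enzyme-positive cells, too few for the same split. In them the hydrolases summed to 4256 (3899–4638) CPM, and Lgmn alone had 1378 (1178–1602) CPM. The 1709 enzyme-free cells of day 7 had 2096 (2069–2124) and 79.1 (74.0–84.6) CPM. V-ATPase genes stood at 2813 (2524–3126) CPM in enzyme-positive and 2883 (2851–2915) CPM in enzyme-free cells of day 7. These intervals leave out the spread among the 27 cells. The classes of day 7 also differed in median depth, 2437 and 4467 UMIs, and in myofibroblast markers, 334 and 4527 CPM, in enzyme-positive and enzyme-free cells.

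On day 14, lysosomal levels were close in the 2 classes. The 45 genes summed to 18441 CPM in enzyme-positive and 17456 CPM in enzyme-free cells, a ratio of 1.06-fold (1.04–1.07). The ratio was 1.14-fold (1.12–1.17) for hydrolases, 0.986-fold (0.964–1.01) for membrane proteins and 1.10-fold (1.07–1.14) for V-ATPase genes. Of the 43 members counted, 4 were at least 1.5-fold higher in enzyme-positive cells, against 8.26% of all genes, and 1 was lower, against 15.3%. The median log2 ratios were 0.06 for hydrolases, -0.04 for membrane proteins and 0.14 for V-ATPase genes, beside -0.07 for all genes, and that of the membrane proteins changed sign under median-ratio scaling. Hexa had 1047 and 1002 CPM, and Aga 1006 and 1007 CPM, in enzyme-positive and enzyme-free cells.

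The 4 members higher in enzyme-positive cells were Lgmn, Neu1, Naglu and Gm2a. Lgmn had 862 (95% interval 826–899) CPM in enzyme-positive and 506 (95% interval 475–538) CPM in enzyme-free cells, a ratio of 1.71 (1.58–1.84). For Neu1 the levels were 258 and 161 CPM, for Naglu 128 and 83.3 CPM, and for Gm2a 293 and 190.5 CPM. The ratios of the last 3 lay close to 1.5, at 1.598 (1.40–1.83), 1.54 (1.28–1.87) and 1.54 (1.36–1.75), and their intervals reached below it. In the other direction Scarb2 had 109.9 CPM in enzyme-positive and 184 CPM in enzyme-free cells, a ratio of 0.599 (0.511–0.702). Lipa, with 46.9 and 70.4 CPM, came next at 0.666 (0.517–0.855), which stays within 1.5-fold once 1 CPM is added. The counts of 4 higher and 1 lower are small and changed with the totals used: without mitochondrial and ribosomal protein UMIs they were 2 and 2, against 8.09% and 16.9% of all genes.

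Macrophage markers differed between the classes, at 13.4 CPM in enzyme-positive and 586 CPM in enzyme-free cells, with Lyz2 leading in both and 5 of 10 genes at 0 in enzyme-positive cells (C1qa, C1qb, C1qc, Adgre1 and Ptprc). Without cells of at least 2 such UMIs, the ratio of Lgmn was 1.74 (1.61–1.88) and that of Scarb2 0.598 (0.509–0.703), near the values with them. Naglu and Neu1 stayed past 1.5-fold, at 1.51 (1.25–1.84) and 1.59 (1.39–1.83), while Gm2a came within it and left 3 members higher, with no share of all genes given for this setting. The ratio of Lipa was 0.765 (0.587–0.997) without these cells, nearer to 1.

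Enzyme-free cells alone also differed between days. In a comparison chosen after the data had been seen, the 338 enzyme-free cells of day 14 were set against the 1709 of day 7. In these cells 21 of 43 members were at least 1.5-fold higher on day 14, against 15.5% of all genes, and 0 were lower, against 25.1%. The median log2 ratio was 1.03 for hydrolases, 0.49 for membrane proteins and 0.15 for V-ATPase genes, beside -0.14 for all genes. Hexa differed by 4.49-fold (4.23–4.76), Lgmn by 6.39-fold (5.83–7.00) and Gaa by 3.51-fold (3.25–3.797) in these cells. Markers also differed between these cells of day 7 and day 14, with the 3 Leydig markers outside the split at 365 and 1491 CPM, macrophage markers at 18.3 and 586 CPM and myofibroblast markers at 4527 and 556 CPM, so the cells compared are not alike in composition, and the part of this was not tested. Free RNA from enzyme-positive cells in the same droplet run can add UMIs to other cells, and its part was not tested.

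The promoters of the members were searched for the palindrome TCACGTGA, the core of the CLEAR element bound by TFEB, and for CACGTG, the E-box inside it. Both read the same on either strand, and each match of the longer is also a match of the shorter. RefSeq windows of 300 bases around the transcript start (250 before, 50 after, GRCm38.p6) were found for 39 of 45 members. The others are Asah1, Galns, Aga, Atp6v1b2, Atp6v1g1 and Atp6v1h. TCACGTGA stood in windows of 5 members, or 12.8%, and of 1.12% of all 27025 genes with a window. CACGTG stood in windows of 12 members, or 30.8%, and of 8.09% of all genes. The shares of all genes cover genes with a window whether or not they were detected here. A match is a description and not a bound site, and its part in the levels of these cultures was not tested.

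The 5 members with an exact match of TCACGTGA are 2 membrane proteins and 3 V-ATPase genes, and 0 of the 18 hydrolases with a window. The 30 bases around each match are shown 5′ to 3′ on the gene's strand, with the motif in capitals. In the annotation the match lies in an untranslated exon for Atp6v0e, Cln3 and Mcoln1, in an intron for Atp6v1a and outside the gene for Atp6v0d1.
Atp6v0d1, chr8:105566050-105566079 (minus strand): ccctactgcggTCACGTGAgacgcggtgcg
Atp6v0e, chr17:26676387-26676416 (plus strand): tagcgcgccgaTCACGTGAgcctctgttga
Atp6v1a, chr16:44139373-44139402 (minus strand): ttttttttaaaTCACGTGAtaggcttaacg
Cln3, chr7:126583340-126583369 (minus strand): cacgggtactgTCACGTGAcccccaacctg
Mcoln1, chr8:3500462-3500491 (plus strand): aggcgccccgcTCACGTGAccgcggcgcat
Of these genes, Cln3 was at least 1.5-fold higher in the second step, Mcoln1 and Atp6v0d1 in the first, and Atp6v0e and Atp6v1a in neither. Cln3 also passed in the first step, but not under median-ratio scaling, and Mcoln1 passed in the second under that scaling only.

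The shorter CACGTG stood in windows of 5 hydrolases. Each of these 5 matches differs from TCACGTGA only in the base at an end. That no hydrolase had the longer motif thus rests on the exact form searched. The match lies in an untranslated exon for Naglu, partly in an exon for Sgsh, in an intron for Lgmn and outside the gene for Gaa and Glb1.
Gaa, chr11:119267811-119267840 (plus strand): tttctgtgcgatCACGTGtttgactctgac
Glb1, chr9:114401018-114401047 (plus strand): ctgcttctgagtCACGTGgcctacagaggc
Lgmn, chr12:102439124-102439153 (minus strand): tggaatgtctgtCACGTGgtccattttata
Naglu, chr11:101070009-101070038 (plus strand): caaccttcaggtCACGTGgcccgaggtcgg
Sgsh, chr11:119355522-119355551 (minus strand): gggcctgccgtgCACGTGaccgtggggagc
In the later step the ratio was 3.55 (3.34–3.77) for Gaa, 2.51 (2.23–2.83) for Glb1, 7.39 (6.91–7.91) for Lgmn, 3.89 (3.39–4.48) for Naglu and 1.46 (1.08–1.96) for Sgsh. The remaining 2 members with CACGTG alone are Lamp1, with 4 matches, and Atp6v0b, with 2. Hexa and Gusb, which moved by 4.50-fold (4.29–4.71) and 4.29-fold (4.01–4.60), have neither motif in their windows.

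By position the members are spread over 15 chromosomes (GENCODE M21 on GRCm38). Hexa lies on chromosome 9 from 59539540 to 59565109, Lgmn on chromosome 12 from 102394084 to 102439813, Naglu on chromosome 11 from 101070012 to 101077672 and Lipa on chromosome 19 from 34492318 to 34527474. Exons of Glb1 overlap those of Tmppe on the same strand, so the Glb1 counts are uncertain. Exons of 12 members overlap a gene on the other strand, Hexa, Lamp1 and Grn among them.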

How the data were processed

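Alignment to GRCm38 (STAR) and UMI counting (Drop-seq tools) were done by the authors. The submitters' processing notes name STAR 2.5.2a, Picard 2.6.0 and SAMtools 1.2, while the study's methods give another STAR version, and the annotation release is not stated. The deposited values are raw UMI counts. The merged counts hold 6124 cells, the number the study states, out of 7000 barcodes in the tables per day. The stated filter (at least 500 genes, at most 10% mitochondrial UMIs) applied to those tables leaves 6128. All 6124 cells had identical entries in both. A further 495 columns of day 0 cells belong to no sample here and were not used. Doublets were not removed.

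UMIs were summed per day and scaled to 1000000. Ratios, intervals and thinning (seed 1) used Python 3.11.15, numpy 2.4.6, scipy 1.17.1 and pandas 2.3.3, tested on simulated data. Figures used matplotlib 3.10.9. Members and lists were chosen with earlier results of these data known. Members were named where among the 5 most abundant of a group, past 1.5-fold or against the group, the rest by range, and a few more, like the grouping of hydrolases by substrate, after values were seen. Alternatives covered cell filters, weights, depth, scaling, pseudocount, minimum level, fold and the split.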

Additional observations from a re-analysis of the deposited data

How the results depend on the processing

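The 15 counts and medians were recomputed under 12 to 14 other settings each, 1 of them (only cells that held 0 enzyme UMIs after thinning) chosen after seeing the data. Of 191 values, 170 stayed within 1.5 times the count or within the counting interval of the middle member. That interval is not the spread of a group median and is wide where the middle member is scarce. For hydrolases in the first step it was that of Galns, 0.37 to 1.27, so a median of 0.42 beside 0.72 counted as within. The 170 is thus a lenient count. No setting gave a member at least 1.5-fold lower in either step between days. The median log2 ratio of hydrolases ranged over 0.42 to 0.75 in the first step and 1.03 to 1.28 in the second. In the second step it was 0.40 to 0.64 for membrane proteins and 0.08 to 0.38 for V-ATPase genes, below the hydrolases in each setting. With 2-fold in place of 1.5-fold, 4 members were higher on day 7 than on day 4, by construction fewer, and no share of all genes at 2-fold is given beside them. Median-ratio scaling moved the membrane protein median of the first step to 0.588 and the V-ATPase median of the second to 0.377, through its shift of all genes. Among all genes, the higher share of those past 1.5-fold went from 62.1% to 49.6% in the first step and from 37.0% to 50.7% in the second under this scaling, and in the split without mitochondrial and ribosomal protein UMIs the higher share of members past 1.5-fold went from 80% to 50%.

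The split of day 14 cells gave the small counts that depended most on the setting, and the cause was not tested. Members higher in enzyme-positive cells numbered 1 with no cell filter, 2 without mitochondrial and ribosomal protein UMIs, 2 with the threshold at 1 enzyme UMI, 2 with the split made without thinning and 0 at 2-fold. Members lower numbered 2 with the stricter cell filter, 2 without the 6% of cells with the most UMIs, 3 with equal weight per cell, 3 after thinning to 1500 UMIs, 2 without mitochondrial and ribosomal protein UMIs, 0 at 2-fold and 0 with the split made without thinning. Of these settings, only that without mitochondrial and ribosomal protein UMIs has shares of all genes, 8.09% higher and 16.9% lower. The other counts cannot be read against a share. The membrane protein median, near 0 throughout, became 0.0719 with no cell filter, 0.0022 without the 6% of cells with the most UMIs, 0.0271 under median-ratio scaling, 0.0120 at a minimum of 20 CPM and 0.0485 with the split made without thinning. The V-ATPase median became -0.0188 after thinning to 1500 UMIs. Depth limits the scarce genes: 3 UMIs correspond to 0.237 CPM on day 4 and 0.563 CPM on day 14.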
